A study of Mus musculus with 3 samples.

Results

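The Slc26 genes encode anion transporters of 1 family, and 7 of them were followed here across the cell classes and ages of the mouse cochlea. They were *Slc26a5* (prestin), *Slc26a4* (pendrin), *Slc26a7*, *Slc26a2*, *Slc26a11*, *Slc26a6* and *Slc26a1*, chosen by symbol from the 32285 genes counted. Their transcripts were counted as unique molecular identifiers (UMIs) in single cells from dissociated cochleae of C57/B6 mice (C57BL/6J by the study's methods) at postnatal day 14 (P14, 1 library) and day 28 (P28, 2 libraries). Each library pooled 14 cochleae of 7 mice, so a library, not a mouse, was the unit of replication. No genotype or treatment was compared. The lower basal turn is underrepresented, because dissection did not recover all of it.

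Most members of this family exchange chloride for bicarbonate, iodide, oxalate or sulfate across the plasma membrane. Prestin is the exception, a voltage-driven motor in the lateral wall of outer hair cells (OHCs), where it changes cell length and so amplifies sound. Pendrin secretes bicarbonate into endolymph and is known from spindle, root and outer sulcus cells, and its loss causes deafness with an enlarged vestibular aqueduct. Slc26a7 is a chloride transporter of kidney, stomach and thyroid, Slc26a2 brings sulfate into cartilage cells, and Slc26a11, Slc26a6 and Slc26a1 carry chloride, oxalate or sulfate in many epithelia.

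Barcodes with 200 to 6000 genes and at most 15% mitochondrial UMIs were kept, which left 1662 of 2513 at P14, and 5651 of 11948 and 7065 of 18196 in P28 libraries 1 and 2. They held 7432047, 24596587 and 23300859 UMIs, with a median of 2477, 2421 and 2037 per cell. Cells were clustered without any Slc26 gene, and clusters were named by markers that hold no Slc26 gene, so no member gave a class its name. The classes used most here were OHC-like cells (277, 361 and 283 in the P14 library and P28 libraries 1 and 2, the order of values throughout), inner hair cell (IHC)-like cells (60, 113 and 76), Deiters' and pillar cell (DC/PC)-like cells (74, 79 and 44) and Reissner's membrane (RM)-like cells (40, 429 and 419). The marker *Ocm* was at 31352, 17404 and 17502 CPM (UMIs scaled to the total of the summed cells) in OHC-like cells, and *Vmo1* at 11584, 8386 and 6243 CPM in RM-like cells. No cluster could be named as spindle or root cells. Between 457 and 1134 cells of a library stayed unnamed, and 4 to 10 barcodes were shared between any pair of libraries.

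Over all kept cells *Slc26a5* had 3855, 1327 and 924 UMIs, *Slc26a7* 175, 1699 and 1325, and *Slc26a4* 15, 676 and 1145. *Slc26a2* followed with 144, 397 and 365 UMIs, *Slc26a11* with 36, 126 and 145, *Slc26a6* with 14, 69 and 69, and *Slc26a1* with 8, 3 and 4. The members therefore fell into 3 with high local counts, 3 that were sparse and spread over classes, and *Slc26a1*, which was too rare to place. Of the family's genes outside this set, *Slc26a8*, *Slc26a9* and *Slc26a10* had at most 18 UMIs in a library and *Slc26a3* had none.

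*Slc26a5* (ENSMUSG00000029015) lies on chr5:21810655-21865604, minus strand, and *Slc26a4* (ENSMUSG00000020651) on chr12:31519827-31559969, minus strand, in the GENCODE M21 annotation of GRCm38. The bases just upstream of their starts are given here because these members marked different cells. They come from RefSeq (GRCm38.p6), are read on the gene's strand 5′ to 3′, and span chr5:21865605-21865854 and chr12:31559985-31560234. Capitals mark a GC box (GGGCGG) for *Slc26a5* and a TATA box (TATAAA) for *Slc26a4*.
Slc26a5: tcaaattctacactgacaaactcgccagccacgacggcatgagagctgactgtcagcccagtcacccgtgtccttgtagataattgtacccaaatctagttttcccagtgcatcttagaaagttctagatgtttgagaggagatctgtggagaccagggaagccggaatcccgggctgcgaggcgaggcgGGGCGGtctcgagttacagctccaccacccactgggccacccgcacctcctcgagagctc
Slc26a4: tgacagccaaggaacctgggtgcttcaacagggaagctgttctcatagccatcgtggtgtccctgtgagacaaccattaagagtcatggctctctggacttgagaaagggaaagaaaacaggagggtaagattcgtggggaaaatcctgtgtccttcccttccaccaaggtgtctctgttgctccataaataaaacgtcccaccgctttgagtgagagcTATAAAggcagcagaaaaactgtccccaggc
The *Slc26a5* stretch was 56% G or C with 13 CpG, and its GC box ended 54 bases before the stretch's end. The *Slc26a4* stretch was 49.6% G or C with 4 CpG, and its TATA box ended 25 bases before the end. Searched on both strands, GGGCGG was present in 32.74% and TATAAA in 12.37% of 32851 mouse stretches of the same 250 bases, so neither match sets these genes apart. CCAAT, present in 33.85% of the stretches, and CANNTG, present in 66.22%, were found in neither. *Slc26a7* (ENSMUSG00000040569) lies on chr4:14502430-14621805 (minus), *Slc26a11* on chr11:119355557-119381079 (plus) and *Slc26a6* on chr9:108853283-108913049 (plus). *Slc26a1* lies on chr5:108669878-108675569 (minus) and is wholly inside *Idua*, which runs on the other strand.

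Prestin was counted almost entirely in 1 class. *Slc26a5* reached 2026 CPM (95% Poisson interval 1962 to 2091) in OHC-like cells at P14, and 538 (509 to 568) and 655 (613 to 699) in the P28 libraries. These intervals, like all others here, cover counting error only. OHC-like cells held 98.6%, 97.7% and 97.9% of its UMIs, and no interval of another class reached theirs in any library.

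IHC-like cells, the other sensory cell, had a median depth of 1025.5, 9310 and 8007.5 UMIs, against 6510, 5242 and 3751 in OHC-like cells. IHC-like cells held 1, 0 and 1 *Slc26a5* UMIs. The OHC-like level was therefore 511 times higher at P14 (interval 91.7 to 20204), at least 174-fold higher in P28 library 1 by a limit of 3 UMIs in that library, and 390 times higher in P28 library 2 (69.7 to 15404). The fitted log2 difference was 9.49 ± 0.34 (SE, adjusted p = 3.4e-08, edgeR quasi-likelihood test with Benjamini-Hochberg adjustment, 3 libraries), but with 2 UMIs in all IHC-like cells its size depends on the added prior count. Of all genes tested in this comparison 35.8% were called. *Slc26a2* was the only other member that passed the filter on low counts, with 9.59, 11.6 and 11.6 CPM in OHC-like cells, and IHC-like cells stood at 11.9, 13.4 and 6.73 CPM. The intervals of the groups overlapped in each library (log2 difference 0.21 ± 0.42, adjusted p = 0.75).

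Against all cells other than hair cells, where 57.7% of genes were called, 4 of the 6 members tested passed. *Slc26a5* was 203 (155 to 271), 381 (265 to 566) and 776 (488 to 1316) times higher in OHC-like cells, a fitted log2 difference of 8.70 ± 0.48 (adjusted p = 0.00076, edgeR). The other 3 were lower there than in the rest taken as 1 sum. That sum includes the few clusters where *Slc26a7* and *Slc26a4* were concentrated. RM-like cells alone held 96%, 92.2% and 85.3% of *Slc26a7* UMIs. P28 cells outside the 4 clusters described below had *Slc26a4* at 4.27 and 16.7 CPM. OHC-like cells were not tested against the rest without these clusters. *Slc26a4* was at 0.53, 2.49 and 10.1 CPM in OHC-like cells against 2.64, 31.5 and 53.0 in the rest (log2 difference -2.73 ± 0.36, adjusted p = 0.0048, edgeR). *Slc26a7* was at 0, 3.32 and 10.9 CPM against 32.8, 79.5 and 61.3 (-3.75 ± 0.67, adjusted p = 0.01). *Slc26a11* was at 0.53, 2.07 and 1.45 CPM against 6.60, 5.47 and 6.47 (-1.96 ± 0.52, adjusted p = 0.029). *Slc26a2* (-0.60 ± 0.25, adjusted p = 0.099) and *Slc26a6* (0.25 ± 0.40, adjusted p = 0.62) did not pass. *Slc26a4* lost its call without the library term (adjusted p = 0.093). *Slc26a7* lost it without P28 library 1 (adjusted p = 0.065), and *Slc26a11* without either P28 library (0.069 and 0.097). With at most 10% mitochondrial UMIs these 3 were not called (adjusted p = 0.098, 0.13 and 0.21 for *Slc26a4*, *Slc26a7* and *Slc26a11*).

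**Figure D1:**
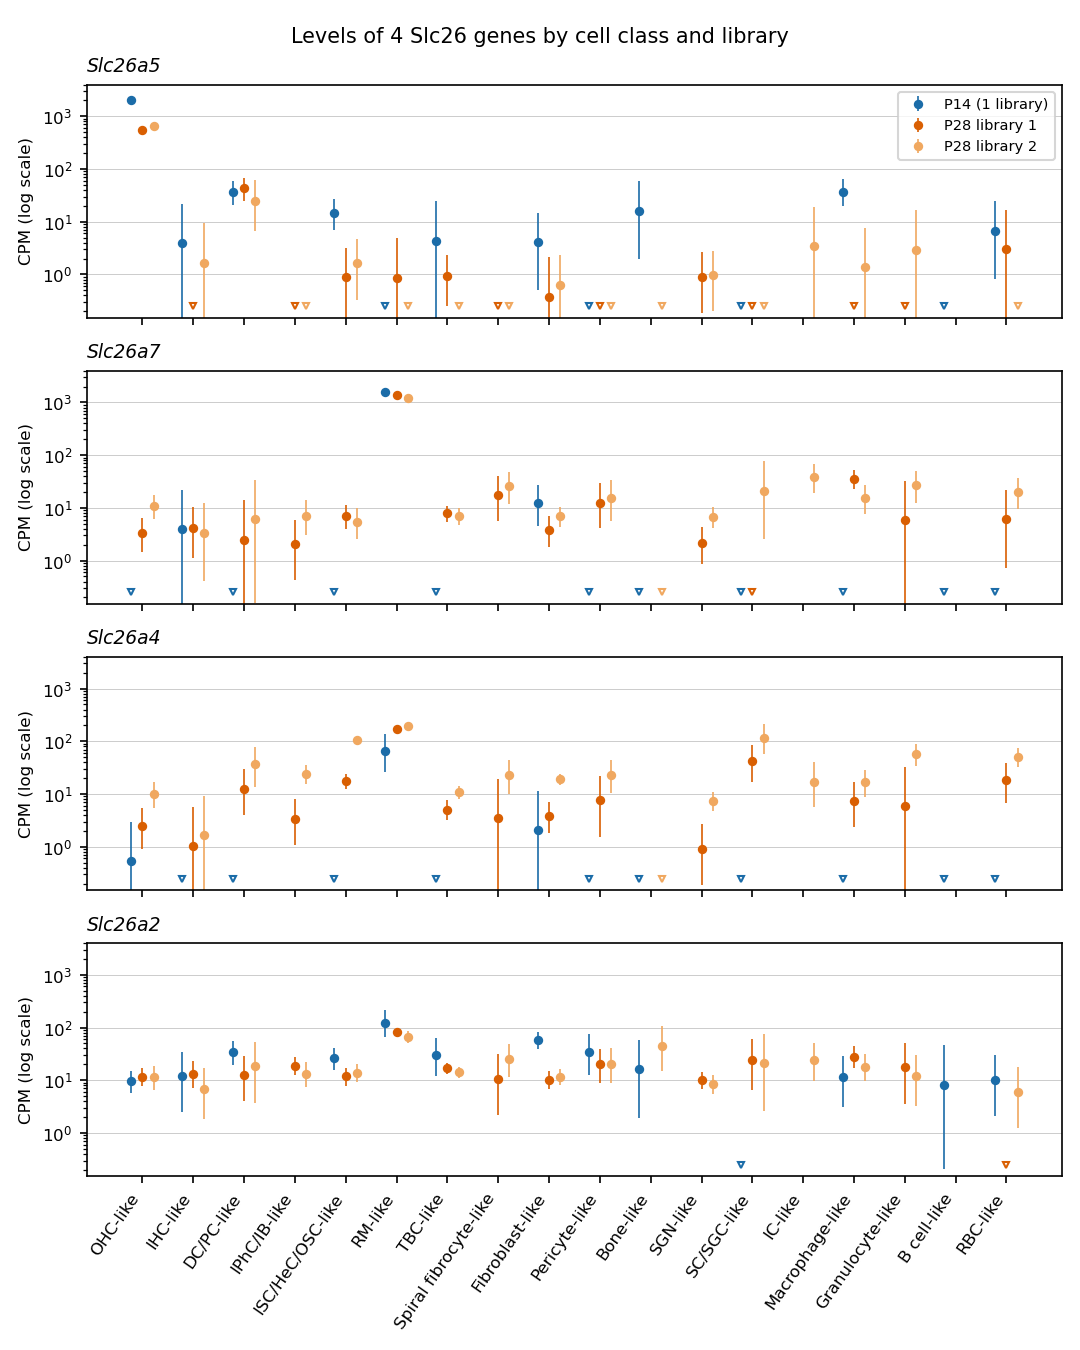
Levels in CPM (log axis) of 4 Slc26 genes in each cell class, with 95% Poisson intervals, for the P14 library and both P28 libraries. Open triangles mark classes with no UMI and a missing mark a class with fewer than 10 cells; *Slc26a5* stands out in OHC-like cells (2026, 538 and 655 CPM) and *Slc26a7* in RM-like cells (1596, 1368 and 1217 CPM).

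Outside OHC-like cells 54, 30 and 19 *Slc26a5* UMIs were found, in 24, 16 and 17 cells. DC/PC-like cells, the supporting cells that hold the OHCs, ranked next at P28 and close to next at P14, with 36.5, 42.7 and 24.4 CPM. Those levels came from 16, 17 and 4 UMIs in 4, 4 and 2 cells. The OHC marker *Ocm* was also counted there, and the ratio of *Slc26a5* to *Ocm* UMIs was 0.112, 0.0301 and 0.0714 in DC/PC-like cells against 0.0646, 0.0309 and 0.0374 in OHC-like cells. The part of mixed barcodes in these UMIs was not tested. At P14 macrophage-like cells stood at 37.1 CPM, and all 13 of their UMIs were in 1 cell.

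The level of prestin was higher at P14 than in either P28 library. It was 3.76 times higher (interval 3.53 to 4.01) than in P28 library 1 and 3.09 times higher (2.88 to 3.33) than in P28 library 2. With 1 library at P14 this difference has no replicate check and no test. By cluster the P14 level was 2088, 1989 and 881 CPM, the last (640 to 1183) from 32 cells with a median of 929.5 UMIs. That interval overlapped with those of the OHC-like clusters in P28 library 2 (590 and 776 CPM) but not in library 1. The P28 libraries differed from each other by far less than either did from P14, although their intervals did not overlap. Per OHC-like cell the median was 12, 3 and 2 UMIs, and the median of the cells' own levels 1918, 477 and 572 CPM. OHC-like cells with at least 1 UMI made up 96.0%, 90.6% and 88.7%, and their class's median depth was 6510, 5242 and 3751 UMIs. Tympanic border cell (TBC)-like cells, which line the basilar membrane and should lack prestin, had a UMI in 1.54%, 0.319% and 0% of cells at median depths of 1964, 2026 and 2175.5 UMIs. With every cell thinned to 1000 UMIs the OHC-like share was 83.5%, 39.6% and 48.8%, with 17, 2 and 0 shallower cells left out, and the mean was 2.21, 0.529 and 0.721 UMIs per cell.

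**Figure D2:**
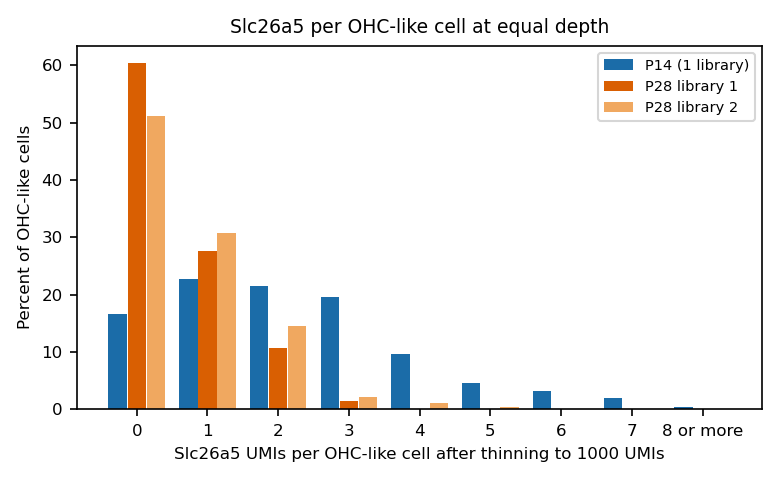
Percent of OHC-like cells with a given number of *Slc26a5* UMIs after each cell was thinned to 1000 UMIs, for the P14 library and both P28 libraries. At P14 16.5% of cells had none and the mean was 2.21 UMIs, while in the P28 libraries 60.4% and 51.2% had none.

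Few OHC genes were lower at P28 by as much. The 2040 genes at 100 CPM or more in OHC-like cells at P14 or in both P28 libraries were compared as CPM + 10. Of these, 119 (5.83%) were at least 2 times lower in both P28 libraries and 63 at least 2 times higher, and 43 were lower by at least as much as *Slc26a5* in both. The calcium buffer *Ocm* was 1.80 and 1.79 times lower at P28, and *Pou4f3*, a transcription factor that hair cells need to survive, was 1.43 and 1.57 times lower. *Chrna10*, a subunit of the receptor for efferent input, was 1.54 and 1.36 times higher at P28. Mitochondrial UMIs made up a median of 8.61% of an OHC-like cell's UMIs at P14 and 13.1% and 12.7% at P28, and 89, 1 and 0 OHC-like cells were nucleus-like, with over 5% *Malat1* UMIs and under 5% ribosomal protein UMIs. Without the nucleus-like cells *Slc26a5* remained 3.69 and 3.03 times higher at P14. Among cells with at most 10% mitochondrial UMIs, which left 210, 15 and 37 OHC-like cells, it was 6.67 and 3.13 times higher. The part of cell quality in the difference was not tested beyond these values.

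*Slc26a7* was the counterpart of prestin in the membrane that separates endolymph from perilymph. RM-like cells held 1596 (1364 to 1857), 1368 (1301 to 1437) and 1217 (1147 to 1290) CPM, and 96%, 92.2% and 85.3% of its UMIs. All other cells together had 7, 132 and 195 UMIs, so RM-like cells were 1671 (793 to 4220), 243 (203 to 292) and 140 (120 to 163) times higher. A UMI was found in 75%, 75.8% and 72.3% of RM-like cells at median depths of 1381.5, 2358 and 1956 UMIs, and in 0%, 1.39% and 2.12% of the deeper OHC-like cells. Thinned to 1000 UMIs, the shares were 70.4%, 62.0% and 60.5% in RM-like cells and at most 1.06% in OHC-like cells. The next class by level was another one in each library and never above 38.1 CPM.

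Against all other cells, where 40.2% of genes were called, 4 of 6 members tested passed in RM-like cells, and 3 of them were higher. *Slc26a7* had a fitted log2 difference of 8.10 ± 0.40 (adjusted p = 2.6e-29, edgeR). *Slc26a4* was at 66.5, 175 and 199 CPM in RM-like cells against 1.09, 20.3 and 42.9 CPM in the rest (2.78 ± 0.22, adjusted p = 1.9e-18). *Slc26a2* was at 124, 81.2 and 65.7 CPM against 17.9, 12.96 and 13.6 CPM (2.47 ± 0.19, adjusted p = 7.1e-19). For each of these 3 the intervals did not overlap in any library. *Slc26a5* was lower, with 1 UMI in all RM-like cells (adjusted p = 2.5e-18, edgeR). The other side of this comparison includes the OHC-like cells, which held 98.6%, 97.7% and 97.9% of *Slc26a5* UMIs. RM-like cells were not tested for *Slc26a5* against cells other than OHC-like ones. *Slc26a11* (-0.84 ± 0.59, adjusted p = 0.28) and *Slc26a6* (-1.66 ± 1.00, adjusted p = 0.19) did not pass. Without the library term the difference of *Slc26a4* was of the same size but not called (2.81, adjusted p = 0.076).

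**Figure D3:**
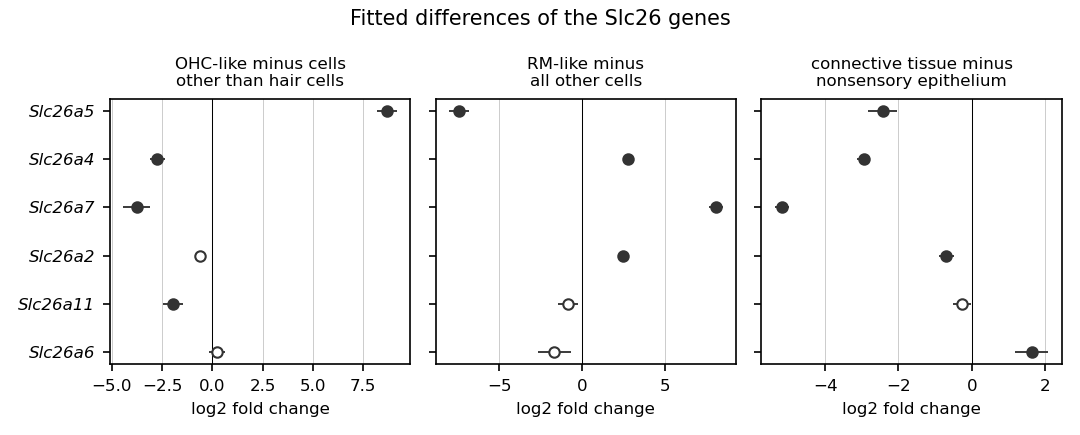
Fitted log2 fold changes with standard errors (bars) of the 6 members tested, in 3 comparisons of summed cells over 3 libraries. Filled points had an adjusted p under 0.05; *Slc26a5* and *Slc26a7* lie farthest from 0, at 8.70 in OHC-like and 8.10 in RM-like cells.

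At P28 RM-like cells came in 2 clusters, and these held the pair in different proportions. The split and the clusters below were picked after their levels were seen, so the values are descriptions without a test. One cluster (318 and 300 cells) was rich in *Vmo1*, at 10212 and 8458 CPM, and held *Slc26a7* at 1606 and 1566 CPM with *Slc26a4* at 134 and 124 CPM. The other (111 and 119 cells) had *Vmo1* at 3282 and 1587 CPM and also *Anxa1*, a spindle and root cell marker here, at 1500 and 1955 CPM, against 23.7 and 55.6 CPM in the first. *Enpep*, another RM marker here, went the other way from *Vmo1*, at 1007 and 956 CPM in the second against 178 and 181 CPM in the first. The second cluster held *Slc26a7* at 702 and 484 CPM and *Slc26a4* at 288 and 358 CPM. The ratio of *Slc26a7* to *Slc26a4* UMIs was 11.99 and 12.6 in the first cluster and 2.44 and 1.36 in the second. Of cells with a *Slc26a4* UMI, 92.5% and 88.3% also had *Slc26a7* in the first and 54.5% and 40.0% in the second. Median depth differed little between them (2242 and 1879.5 against 2492 and 2143 UMIs). *Slc26a2* was at 91.3 and 84.3 CPM in the first and 53.0 and 26.7 CPM in the second.

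Pendrin was concentrated elsewhere. Its highest level at P28, 1040 (933 to 1155) and 924 (838 to 1016) CPM, was in an unnamed cluster of 168 and 283 cells led by *Ceacam16*, a protein of the tectorial membrane, and *Tcap*, with *Otoa*, which anchors that membrane, and *Slc26a4* itself among its leading genes. That cluster made up 2.97% and 4.01% of kept cells and held 51.5% and 37.2% of the *Slc26a4* UMIs in kept cells. *Slc26a7* was almost missing from it, with 1 and 2 UMIs, and *Anxa1* was at 20.9 and 41.2 CPM. A small cluster rich in *Fst* and *Frzb*, within the class of inner sulcus, Hensen's and outer sulcus cells (ISC/HeC/OSC-like; 29 and 99 cells), had 186 and 538 CPM. It ranked second in P28 library 2, and in P28 library 1 it stood below the *Anxa1*-rich RM-like cluster (288 CPM), with overlapping intervals. These 4 clusters held 85.5% and 68.6% of the *Slc26a4* UMIs in kept cells. Kept cells in turn held 49.0% and 41.4% of its UMIs over all barcodes of the P28 libraries, and the other barcodes were not clustered. All other P28 cells were at 4.27 and 16.7 CPM, so the level outside the 4 clusters was higher in library 2, as it was in spiral ganglion neuron (SGN)-like cells at 0.912 and 7.45 CPM. The part of free RNA in those low levels was not tested. A *Slc26a4* UMI was found in 63.1% and 64.3% of the cells of the *Ceacam16* cluster (median depth 1795.5 and 1446 UMIs), in 28.9% and 26.3% of RM-like cells and in 1.81% and 2.45% of TBC-like cells. Thinned to 1000 UMIs, the shares were 14.9% and 14.2% in RM-like and 0.225% and 1.21% in TBC-like cells. Among named classes RM-like cells ranked first, and in P28 library 2 their interval overlapped with that of SC/SGC-like cells (117 CPM, 11 UMIs).

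**Figure D4:**
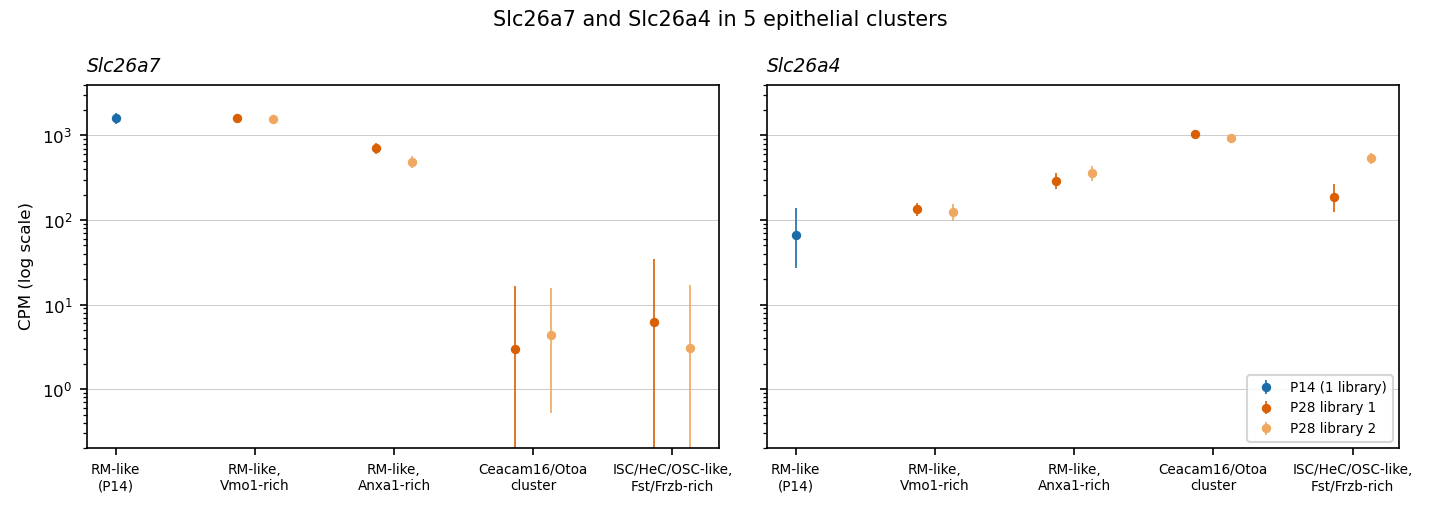
Levels in CPM (log axis) of *Slc26a7* and *Slc26a4*, with 95% Poisson intervals, in the P14 RM-like cluster and 4 P28 clusters. *Slc26a7* was at 1606 and 1566 CPM in the *Vmo1*-rich RM-like cells and at 2.99 and 4.34 CPM in the *Ceacam16*/*Otoa* cluster, where *Slc26a4* was highest at 1040 and 924 CPM.

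At P14 only 15 *Slc26a4* UMIs were found. Of these, 7 were in RM-like cells, where all 5 cells with *Slc26a4* also had *Slc26a7*, and 6 were in 3 cells of an unnamed cluster led by *Ucma* and *Epyc* (34.1 CPM). No separate P14 cluster with the genes of the *Ceacam16*/*Otoa* cluster was found, so its level there could not be compared between ages. Among P14 clusters *Otoa* was highest in the RM-like one, at 285 CPM, against 759 and 633 CPM in the *Ceacam16*/*Otoa* cluster at P28. Whether the P14 RM-like cluster holds cells of that kind was not tested. The RM-like class was 1 cluster at P14 and held both clusters described above at P28. In the class as a whole *Slc26a4* was 2.62 (1.25 to 6.61) and 3.00 (1.43 to 7.56) times higher at P28, from 7 UMIs at P14. *Slc26a7* was 1.17 (0.99 to 1.37) and 1.31 (1.11 to 1.54) times higher at P14. In the *Vmo1*-rich P28 cluster alone the intervals of both genes overlapped with those at P14, with *Slc26a4* at 134 and 124 CPM against 66.5 and *Slc26a7* at 1606 and 1566 CPM against 1596. The P14 cluster also had *Anxa1* at 1368 CPM, so it did not match that P28 cluster in every marker. It differed too in *Otoa*, at 285 against 104 and 107 CPM, and in *Enpep*, at 694 against 178 and 181 CPM. The median of 2187 RM-like genes was itself 0.19 and 0.23 lower at P28 on the log2 scale, and 166 of them (7.59%) were at least 2 times lower in both P28 libraries.

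The sulfate transporter *Slc26a2* was found in nearly every class at low levels. RM-like cells ranked first in each library, with 13, 93 and 61 UMIs. Their interval stood clear of the next class in P28 library 1 only (65.5 to 99.4 CPM against 16.9 to 43.9 in macrophage-like cells). At P14 fibroblast-like cells came next with 57.8 CPM, 5.66 (3.22 to 9.99) and 4.91 (2.9 to 8.25) times their level at P28 of 10.2 and 11.8 CPM. Under a finer clustering the P14 fibroblast-like level was 18.9 CPM and the ratios 1.85 and 1.59, so that difference rested on which P14 cells carried the name. OHC-like cells stood at 9.59, 11.6 and 11.6 CPM.

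Whether matrix-producing cells held more of the sulfate carriers was asked by setting connective tissue classes (TBC-, spiral fibrocyte-, fibroblast-, pericyte- and bone-like) against nonsensory epithelial classes. Here 52.4% of genes were called and 5 of 6 members. *Slc26a7* (log2 difference -5.17 ± 0.19, adjusted p = 2.6e-05, edgeR) and *Slc26a4* (-2.95 ± 0.17, adjusted p = 3.5e-05) were lower in connective tissue. RM-like cells, on the epithelial side, held 96%, 92.2% and 85.3% of *Slc26a7* UMIs and had *Slc26a4* at 66.5, 175 and 199 CPM. At P28 *Slc26a7* was at 2.51 and 6.10 CPM in DC/PC-like cells. It was at 2.04 and 7.10 CPM in inner phalangeal and border cell (IPhC/IB)-like cells. The differences without RM-like cells were not fitted. The classes on each side also differed between libraries. Spiral fibrocyte-like and IPhC/IB-like cells were named at P28 only, and bone-like cells numbered 79, 1 and 30. *Slc26a5* was lower in connective tissue too (-2.43 ± 0.39, adjusted p = 0.0021, edgeR), from 5, 5 and 2 UMIs there against 26, 20 and 7. Of those epithelial UMIs, 16, 17 and 4 were in 4, 4 and 2 DC/PC-like cells, a class where *Ocm* was also counted. The part of mixed barcodes in this difference was not tested. The *Slc26a5* call was lost without the library term (adjusted p = 0.087), under the cell limits of the study (0.073) and without cells of the highest doublet scores (0.054). *Slc26a2* was at 42.4, 14.5 and 14.4 CPM in connective tissue and 37.1, 29.0 and 25.7 CPM in epithelium. It was lower in 2 of 3 libraries (-0.69 ± 0.20, adjusted p = 0.023, edgeR), and the call was lost without either P28 library (adjusted p = 0.32 and 0.21) and by DESeq2 (0.18). At P28 RM-like cells, on the epithelial side, had *Slc26a2* at 81.2 and 65.7 CPM, from 93 and 61 UMIs. ISC/HeC/OSC-like cells, on the same side, had 11.9 and 14.0 CPM. Connective tissue was not tested against epithelium without RM-like cells. At P14 the connective tissue side includes the fibroblast-like cells, whose *Slc26a2* level depended on the clustering, as given above. *Slc26a6*, a chloride and oxalate exchanger, was higher at 4.94, 2.88 and 3.13 CPM against 0.806, 1.33 and 0.736 (1.63 ± 0.46, adjusted p = 0.022), from 11 UMIs on the epithelial side, and was not called by DESeq2 (0.070). *Slc26a11* did not pass (-0.26 ± 0.25, adjusted p = 0.41).

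*Slc26a11* ranked first in DC/PC-like cells at P28, with 35.2 and 61.0 CPM (14 and 10 UMIs), and second at P14 with 9.12 CPM (4 UMIs). Macrophage-like cells had 22.8, 13.3 and 19.5 CPM and ranked first at P14. The intervals of these classes overlapped in each library, and so did those of Schwann and satellite glial cell (SC/SGC)-like cells, which ranked between them at P28 on 3 and 2 UMIs. *Slc26a6* was highest in SGN-like cells at P28 library 1 (7.60 CPM, 25 UMIs) and second there in library 2 (6.80 CPM, 21 UMIs), behind spiral fibrocyte-like cells with 4 UMIs. At P14 its highest level, 23.04 CPM in pericyte-like cells, was 4 UMIs. *Slc26a1* had at most 3 UMIs in any class. *Idua*, which holds it, runs on the other strand, and whether any *Idua* reads were counted for *Slc26a1* was not tested.

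One test per gene asked whether a level differed among the 11 classes found in every library. All 5 members that passed the filter were called, beside 85.9% of all genes tested. The adjusted p was 3e-17 for *Slc26a5*, 2.4e-17 for *Slc26a7*, 4.5e-13 for *Slc26a4*, 1.7e-06 for *Slc26a2* and 1.8e-05 for *Slc26a11* (edgeR). *Slc26a6* and *Slc26a1* were too sparse to test.

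Genes that work with these transporters were followed as 3 lists. In the sulfate list (activation, transfer and removal of sulfate), 3 of 17 tested genes were higher and 4 lower in RM-like than in all other cells, with a median log2 difference of 0.13 against -0.09 for all genes, of which 40.2% were called. *Papss2* and *Papss1*, which make the activated sulfate donor, were higher there by 2.35 ± 0.21 and 1.59 ± 0.22 (adjusted p = 2.3e-16 and 4.4e-09, edgeR). *Papss1* was at 181, 228 and 164 CPM in RM-like cells. The sulfotransferases *Chst2* and *Chst15* were lower, by -4.80 ± 0.35 and -3.89 ± 0.96. In OHC-like cells against cells other than hair cells, 2 of 17 were higher and 9 lower (median -1.07 against -0.06, with 57.7% of all genes called). *Chst2* was 5.31 ± 0.23 higher there, at 1068, 1715 and 1465 CPM, and *Bpnt1*, which clears the spent donor, 1.28 ± 0.29 higher, while *Papss2* was -2.99 ± 0.69 and *Chst15* -2.74 ± 0.65. Against IHC-like cells none of 12 was higher and 5 were lower (median -0.61 against 0.06, with 35.8% of all genes called), *Papss1* by -1.79 ± 0.24 and *Arsb*, a lysosomal sulfatase, by -1.57 ± 0.35. In connective tissue 5 of 17 were higher and 7 lower (median -0.28 against -0.003, with 52.4% of all genes called). There the sulfate carrier *Slc13a4* was higher by 2.86 ± 0.45 and *Chst14* by 1.61 ± 0.19, and *Papss2* and *Papss1* were lower (-1.79 ± 0.15 and -1.61 ± 0.24).

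In the acid-base list, 4 of 13 were higher and 7 lower in RM-like cells (median -1.35 against -0.09 for all genes, of which 40.2% were called). The anion exchangers *Slc4a2* and *Slc4a3* were higher by 1.94 ± 0.19 and 1.29 ± 0.20 (adjusted p = 2.6e-14 and 6.0e-08, edgeR), and the bicarbonate cotransporter *Slc4a4* was lower (-4.36 ± 0.46), as was *Slc4a1*, the red cell exchanger (-8.46 ± 2.13). In OHC-like cells against cells other than hair cells 1 of 13 was higher and 7 lower (median -2.28 against -0.06, with 57.7% of all genes called). That one was *Car2*, a carbonic anhydrase, at 412, 381 and 332 CPM (1.82 ± 0.15, adjusted p = 0.0018, edgeR). *Slc4a1* (-9.67 ± 1.15) and *Slc4a4* (-4.22 ± 0.55) were lower. The other side of this comparison, and of the RM-like one above, includes red blood cell-like cells (50, 83 and 187). *Slc4a1* was not tested without them in OHC-like or RM-like cells. Against IHC-like cells 2 of 10 were higher and 4 lower (median -0.19 against 0.06, with 35.8% of all genes called), with *Car2* 2.19 ± 0.21 higher and *Slc4a4* and *Car14* lower (-4.97 ± 0.46 and -3.48 ± 0.25). *Car12* was also called higher, at 11.2, 6.64 and 10.1 CPM against no UMI in IHC-like cells. It passed the filter on low counts through the OHC-like side alone, so this call is given as a description only. At P14 a count of 0 in IHC-like cells has an upper limit of 14.6 CPM, above the OHC-like level. In connective tissue 2 of 12 were higher and 6 lower (median -0.34 against -0.003, with 52.4% of all genes called), with *Slc4a11* 4.33 ± 0.27 and the adaptor *Slc9a3r2* 1.93 ± 0.19 higher, and *Car12* and *Car13* lower (-4.20 ± 0.28 and -4.15 ± 0.19).

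In the list of prestin partners and regulators, 4 of 11 passed as higher and 2 as lower when OHC-like cells were set against cells other than hair cells (median 0.24 against -0.06 for all genes, of which 57.7% were called). *Pou4f3* was higher by 8.01 ± 0.17 (adjusted p = 0.00037, edgeR), and the transcription factor *Zbtb16* and the spectrin gene *Sptbn1* were lower (-4.11 ± 0.49 and -1.33 ± 0.12). Against IHC-like cells 3 of 10 were higher and 4 lower (median 0.26 against 0.06, with 35.8% of all genes called). *Thra*, a thyroid hormone receptor, was 0.78 ± 0.16 and *Pou4f3* 0.54 ± 0.15 higher, and *Calm2*, a calmodulin gene, and *Gata3* were lower (-1.49 ± 0.18 and -1.16 ± 0.16). In RM-like cells none of 11 was higher and 5 were lower (median -0.57 against -0.09, with 40.2% of all genes called), among them *Pou4f3* (-5.31 ± 0.43) and *Gata3* (-2.39 ± 0.30). The cells they were set against include the OHC-like cells, which had *Pou4f3* at 1015, 712 and 645 CPM. In connective tissue 5 of 11 were higher and 5 lower (median 0.01 against -0.003, with 52.4% of all genes called), with *Zbtb16* (2.69 ± 0.34) and *Sptbn1* (1.27 ± 0.17) higher and *Gata3* (-5.53 ± 0.31) and *Pou4f3* (-2.04 ± 0.33) lower. On the epithelial side, DC/PC-like cells had 8, 30 and 1 *Pou4f3* UMIs in 4, 6 and 1 cells. In P28 library 2, 14 UMIs were in 3 cells of 1 ISC/HeC/OSC-like cluster. The part of mixed barcodes in the *Pou4f3* difference was not tested. *Gata3* was also a naming marker of the ISC/HeC/OSC-like class, which lies on the epithelial side and among the cells other than RM-like. Its calls in both comparisons may therefore follow in part from the naming.

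For each member the 3 genes with the most similar levels were found over 45 class sums of 18 classes, among 6522 genes, by Pearson's r of log2(CPM + 10). Sums of 1 library share its depth and preparation, so r is a description. *Slc26a5* was closest to *Chrna10* (r = 0.94), a marker used for the OHC name, then *Mpped1* and *Prph2* (both 0.93). *Slc26a7* was closest to *Cndp1* and *Tmem72* (both 0.97) and *A930003A15Rik* (0.96). *Slc26a4* was less tightly matched, over named classes that leave out its highest cluster. Its closest genes were *Vmo1* (0.74), a marker used for the RM name, *Gpx3* (0.73) and *Plscr2* (0.71). Between the RM-like clusters at P28, *Slc26a4* and *Vmo1* went opposite ways. *Slc26a2* was closest to *Lypd2* (0.75), *Clptm1l* and *Acaa1a* (both 0.73), and *Slc26a11* to *Gulp1* and *Smagp* (both 0.64) and *Slc6a6* (0.60). *Slc26a6* had its best matches in *Fam168b* (0.61), *Slc36a4* (0.60) and *Extl3* (0.57). *Slc26a1* had too few UMIs for this.

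Barcodes with more than 15% mitochondrial UMIs, 498, 5986 and 10778 in all, entered none of the values above. Of the 4 members with the most UMIs, *Slc26a4* had the widest gap between these and the kept barcodes at P28, with intervals of 79.1 to 91.9 and 114 to 126 CPM in the barcodes left out. *Slc26a5* was at 480, 56.3 and 28.8 CPM in them, against 519, 54.0 and 39.7 CPM in those kept. These values are descriptions, with no test.

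**Figure D5:**
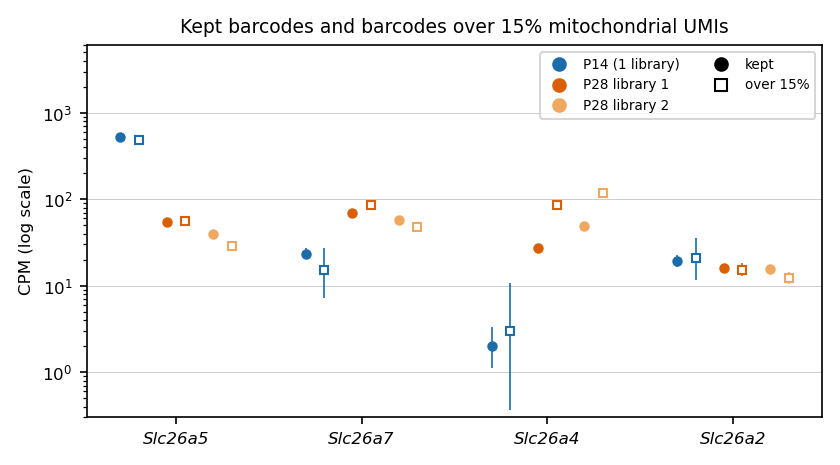
Levels in CPM (log axis) of 4 members over all kept barcodes (filled circles) and over barcodes with more than 15% mitochondrial UMIs (open squares), with 95% Poisson intervals. At P28 *Slc26a4* was at 85.3 and 120 CPM in the barcodes left out against 27.5 and 49.1 in those kept.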

How the data were processed

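Cells of dissociated cochleae were captured with 10x Chromium 3′ chemistry, and the authors aligned and counted the reads with Cell Ranger on mm10. The matrix headers name version 5.0.1 and the submitters' processing notes 6.0.1. The deposited values were UMI counts per gene and barcode. Reads are taken near the 3′ end, so no test compared the level of 1 gene with that of another. UMI counts and ratios of different genes are given as descriptions only. From these counts, barcodes with 200 to 6000 genes and at most 15% mitochondrial UMIs were clustered by age in Seurat 5.3.0 (2000 variable genes, 30 components, resolution 1). All Slc26 genes and all genes of the 3 lists (60 in all) were kept out of the variable genes. Other genes could take part, so the clusters are no test of those. *Gata3*, a gene of the lists, was still used as a naming marker. A cluster was named with "-like" when at least 3 markers of a type marked it and at least 1 was among its 10 leading genes. The type's mean marker level also had to reach 0.2 of the highest cluster's, and no other type could have more leading markers. Leading genes were taken from all genes, so a Slc26 gene could be among them. It could take the place of a marker there but could not give a name. That scoring rule was set after the clusters were seen, and their leading genes could include a Slc26 gene. Doublets were not removed; leaving out the 5% of cells with the highest Scrublet scores (scanpy 1.11.5) was an alternative.

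UMIs were summed per class and library (at least 10 cells) and tested with edgeR 4.0.16 (quasi-likelihood, TMM, filterByExpr, Benjamini-Hochberg over all genes tested, threshold 0.05), with library as a term because both sides of a comparison come from 1 tube of cells. Same-library sums were paired in this way in each comparison. The replicates were libraries of separate pools of mice, and tests over all 3 take both ages together; edgeR also shares an estimate of the spread across genes. P14 was not tested against P28, since P14 has 1 library. CPM values were computed from the summed cells, with exact 95% Poisson intervals, and a count of 0 was set at 3 UMIs for a lower bound. DESeq2 1.42.0, other filters, fits without the library term, without each library, and with thinned cells were alternatives. Scripts were tested on simulated data. A comparison of spindle and root cells was planned but could not be run, as no cluster met the naming rule for them. Named genes were all members, the 3 most similar genes of each with at least 100 UMIs, and from each list the 2 called genes with the largest change in each direction; a gene that this rule selects is not reported here. The members and lists were chosen with earlier results of these data known.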

Additional observations from a re-analysis of the deposited data

Results flagged for a closer look

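*Slc26a4* was also abundant in barcodes that the 15% mitochondrial limit leaves out of all comparisons, 5986 and 10778 in the P28 libraries. Its level there was 85.3 CPM (79.1 to 91.9) and 120 CPM (119.539 before rounding, 114 to 126), against 27.5 and 49.1 CPM in the kept barcodes of those libraries. They held 50.6% and 58.1% of all its UMIs at P28. *Slc26a5* was at 56.3 and 28.8 CPM in the same barcodes against 54.0 and 39.7 CPM in those kept, *Slc26a7* at 85.6 and 47.8 against 69.1 and 56.9, and *Slc26a2* at 15.4 and 12.3 against 16.1 and 15.7. At P14 the 498 barcodes left out had 2 *Slc26a4* UMIs.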

How the results depend on the processing

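Of 225 values of a member under an alternative setting, 223 kept their direction. The reversed ones were *Slc26a2* in OHC-like against IHC-like cells without P28 library 2 (-0.081, within a range of -0.081 to 0.45 when 1 library was left out) and *Slc26a6* in OHC-like cells against cells other than hair cells without P28 library 1 (-0.24, range -0.24 to 0.40), neither called in the first place. *Slc26a4* in RM-like cells was not called without the library term, the replicate block (2.81). *Slc26a2* in connective tissue was not called by DESeq2 (-0.58), without the library term (-0.58), at 10% mitochondrial UMIs at most (-0.49), or without either P28 library, with a range of -0.90 to -0.44 when 1 library was left out. Among classes, all members that could be tested were called, which were 3 with cells thinned to 1000 UMIs, where *Slc26a2* and *Slc26a11* did not pass the filter, and 4 to 5 with 1 library left out, where *Slc26a11* did not pass it without P28 library 2. The log2 ratio of mean P28 to P14 was -2.19 for *Slc26a5* in OHC-like cells with at most 10% mitochondrial UMIs, an alternative chosen after seeing the data, against -1.77. For *Slc26a7* in RM-like cells it was -0.15 without mitochondrial, ribosomal protein and haemoglobin genes, -0.49 thinned and -0.45 at 10% mitochondrial UMIs, against -0.31. Apart from members that did not pass a filter, the cause of these changes was not tested. With 1 library left out, *Slc26a5* ranged from 8.87 to 10.0 against IHC-like cells and from 8.04 to 9.17 against cells other than hair cells, *Slc26a7* in RM-like cells from 7.49 to 8.70, *Slc26a4* from 2.63 to 3.39 and *Slc26a2* from 2.32 to 2.48. Genes called ranged from 1047 (thinned) to 4828 (without P14) for OHC-like against IHC-like cells, where 3678 were called. Against cells other than hair cells they ranged from 987 (10% mitochondrial limit) to 10434 (without P14), with 7970 called, and the share called higher from 33.8% to 66.3% against 44.7%. In RM-like cells they ranged from 893 (10 UMIs in every sum) to 6846 (without P14), with 5584 called, and the share higher from 32.2% to 56.6% against 38.7%. In connective tissue they ranged from 3748 (without P28 library 1) to 8795 (without P14), with 7076 called, and among classes from 467 (10 UMIs in every sum) to 12222 (no filter), with 9318 called. Requiring 10 UMIs in every sum gave a value only for *Slc26a5* and *Slc26a2* in OHC-like cells against cells other than hair cells and for *Slc26a2* in RM-like cells and connective tissue; the other members, abundant ones included, went untested there because 1 side had too few UMIs. *Slc26a6* and *Slc26a11* rest on few UMIs in any class, so differences between their neighbouring classes were not detectable at this depth.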
